A study of Mus musculus with 4 samples.

Results

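Interferon gamma (Ifng) and 8 genes that carry or restrain interferon signals were followed in the leukocytes of mouse melanomas. The 8 were the receptor chains Ifngr1, Ifngr2, Ifnar1 and Ifnar2, the kinases Jak1 and Jak2, and the inhibitors Socs1 and Socs3. These 9 genes were chosen by name for their known roles, from 32285 genes in the deposited table, and all 9 were in it. Each was described in the 16 annotated cell types and compared between control and glucocorticoid (GC)-treated tumors.

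Leukocytes (live CD45+ cells) were sorted from 20967 tumors and sequenced with the 10x 3′ method, which counts mRNA molecules as unique molecular identifiers (UMIs). 20967 is a single mouse melanoma line of genotype Nras+LSL-G12D;Tyr::CreERT2+/o, in which an activating Nras allele is switched on by a Cre driven from the tyrosinase promoter of pigment cells. The line and the wild type hosts, whose leukocytes were measured, are of C57BL/6 origin. The control group comprised 5 tumors given a control cream, and the GC group 5 tumors given clobetasol propionate, a potent topical GC, for a few days. The age and sex of the mice were not given in the sources used here. The cells of each tumor carried their own hashtag antibody. Each group was 1 pool of its 5 tumors in 1 channel, loaded with 17100 cells for the controls and 3500 for the GC group. Treatment and channel therefore cannot be told apart, and every p-value here measures only the spread between hashtagged tumors within a channel.

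The control tumors gave 3803 cells (347 to 1250 per tumor, median 7440 UMIs per cell). The GC-treated tumors gave 305 cells (18 to 111 per tumor, median 9163 UMIs per cell), so the GC values rest on far fewer cells, each read more deeply. No cell barcode was shared by the libraries (0 in all). The deposited cell type names ranked first for their own markers for every lineage checked except the tumor-associated macrophages (TAMs), whose 8-gene macrophage list summed to 142 UMIs per 10000 against 164 in Monocytes 3, and the monocytes, whose list was nearly as high in TAMs (45.7) as in Monocytes 2 (48.3). The 6-gene B cell list, for which no cell type is named, was highest in CD4 cells (3.80), where the 2-gene CD4 T cell list summed to 2.50. The part of B cells in the levels of CD4 cells was not tested. The 6 melanoma markers summed to at most 0.0971 UMIs per 10000 in any cell type. Most of 6 listed GC-induced genes, which served as a check of the labels, were higher in the GC group by limma. In CD8+ T cells 4 of 5 tested were higher and 1 was lower. In TAMs and over all CD45+ cells 5 of 6 were higher and 1 was lower, and in neutrophils 6 of 6 were higher. In CD8+ T cells Tsc22d3, which encodes the GC-induced leucine zipper, went from 1.51 ± 0.251 (SD, n = 5) to 4.66 ± 1.81 (n = 3) UMIs per 10000 (log2 difference 1.50, limma adjusted p = 0.00408).

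IFN-γ is a cytokine made mainly by activated T cells and NK cells. It binds a receptor built from the ligand-binding chain IFNGR1 and the signaling chain IFNGR2, whose bound kinases JAK1 and JAK2 pass the signal on to the nucleus. There it switches on genes of antigen presentation, chemokines and guanylate-binding proteins. IFNAR1 and IFNAR2 form the receptor of the type I interferons, which also uses JAK1. SOCS1 and SOCS3 are induced by cytokines and restrain these receptors, SOCS1 chiefly the IFN-γ receptor and SOCS3 chiefly receptors of the IL-6 family. In tumors, IFN-γ is known both for activating macrophages and for raising the ligands of inhibitory receptors.

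The promoters of Ifng, Socs1 and Socs3 are shown because these genes gave the largest differences between the groups among the 9. They are RefSeq sequences of build GRCm38.p6, read 5′ to 3′ on the strand of the gene and upstream of the RefSeq start of the gene. The Socs3 stretch ends 101 bases before that start and lies between exons of a longer GENCODE transcript of the gene. Capitals mark a gamma-activated site (GAS, TTCNNNGAA, a motif known from IFN-γ-induced genes) in Ifng and Socs3. In Socs1 they mark a pair of overlapping interferon-stimulated response element cores (ISRE core, GAAA, any 2 bases and GAAA).
Ifng promoter, chr10:118440796-118441045, plus strand: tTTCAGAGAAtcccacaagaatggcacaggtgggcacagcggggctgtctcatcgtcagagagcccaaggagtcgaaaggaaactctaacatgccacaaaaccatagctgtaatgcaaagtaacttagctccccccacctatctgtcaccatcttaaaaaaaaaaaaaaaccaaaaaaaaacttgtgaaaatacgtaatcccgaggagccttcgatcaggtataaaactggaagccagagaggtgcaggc
Socs1 promoter, chr16:10785537-10785786, minus strand: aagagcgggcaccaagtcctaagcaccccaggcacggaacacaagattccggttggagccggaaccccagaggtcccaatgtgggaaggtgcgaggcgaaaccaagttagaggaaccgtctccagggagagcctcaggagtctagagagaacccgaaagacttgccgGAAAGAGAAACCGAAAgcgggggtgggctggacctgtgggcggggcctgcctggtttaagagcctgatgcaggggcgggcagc
Socs3 promoter, chr11:117969467-117969616, minus strand: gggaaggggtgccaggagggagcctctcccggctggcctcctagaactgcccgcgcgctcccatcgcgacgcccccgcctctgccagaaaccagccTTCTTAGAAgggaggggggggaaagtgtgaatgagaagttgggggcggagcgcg
The GAS began 249 bases before the gene start in Ifng and 154 bases before it in Socs3, and the ISRE cores 83 and 77 bases before that of Socs1. Over windows of the 250 bases before the start, searched on both strands, a GAS was present in 3 of the 9 genes (Ifng, Ifnar2 and Socs3) and in 7.02% of 32851 promoters. The ISRE core was present in 1 of the 9 and in 2.98% of all promoters. The core ACANNNTGT of the GC response element was present in 0 of the 9 and in 5.84% of promoters, and the T-box site AGGTGTGA in 0 of the 9 and in 1.12%. A match describes the letters in these windows and not a bound site.

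In build GRCm38, to which mm10 corresponds, GENCODE vM21 places Ifng at chr10:118441046-118445892 and Ifngr1 on the same chromosome at chr10:19591949-19610229. Ifnar2 (chr16:91372783-91405589), Ifnar1 (chr16:91485238-91507441) and Ifngr2 (chr16:91547072-91565623) lie close together on chromosome 16, all on the plus strand. Socs1 lies far from them on the same chromosome (chr16:10782240-10785536, minus strand), Socs3 at chr11:117966079-117970047 on the minus strand and Jak2 at chr19:29251828-29313080 on the plus strand. Jak1 (chr4:101152367-101265282, minus strand) overlaps Raver2 on the opposite strand, and Ifng and Ifnar2 each overlap 1 annotated gene on their own strand (Gm49751 and Gm21970).

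In control tumors Ifng was a product of CD8+ T cells and, at a lower level, of NK cells. The 3 largest CD8 clusters, CD8 1 to CD8 3, held 86.5% of the 2032 control Ifng UMIs with 23.1% of the cells. By tumor, their share of the Ifng UMIs was 85.0%, 85.9%, 89.8%, 80.3% and 78.3%, a mean of 83.9 ± 4.59% (SD, n = 5). NK cells held 5.12% of the UMIs, CD4 cells 3.35%, the cycling cluster CD8 4 2.95%, TAMs 0.541% and Tregs 0.344%. No other interferon was measured at a comparable amount: of 20 further type I and type III interferon genes in the table, Ifnk had 1 UMI and Ifnz 2 UMIs in control cells, and all were at 0 UMIs in GC cells.

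Expressed per cell as UMIs per 10000, averaged over the cells of a tumor and then over tumors with at least 10 cells of the type, Ifng was highest in CD8 2 (4.11 ± 1.40, n = 5). It was followed by CD8 3 (2.52 ± 0.222, n = 3), CD8 1 (1.78 ± 0.411, n = 5), NK cells (1.16 ± 0.220, n = 4) and CD4 cells (0.349 ± 0.178, n = 5). Each of the first 4 exceeded the next in every tumor that held both, by more than the SD of the paired difference. Below CD4 cells no neighbors in the order differed by more than that SD, and neutrophils, at 0 UMIs in 162 cells, closed it. The clusters were made from these same cells, so the order is a description without a test. Too few tumors had 10 cells of CD8 4, γδT cells or Monocytes 3 for a spread, and their pooled levels were 1.55, 0.0329 and 0.0346.

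**Figure D1:**
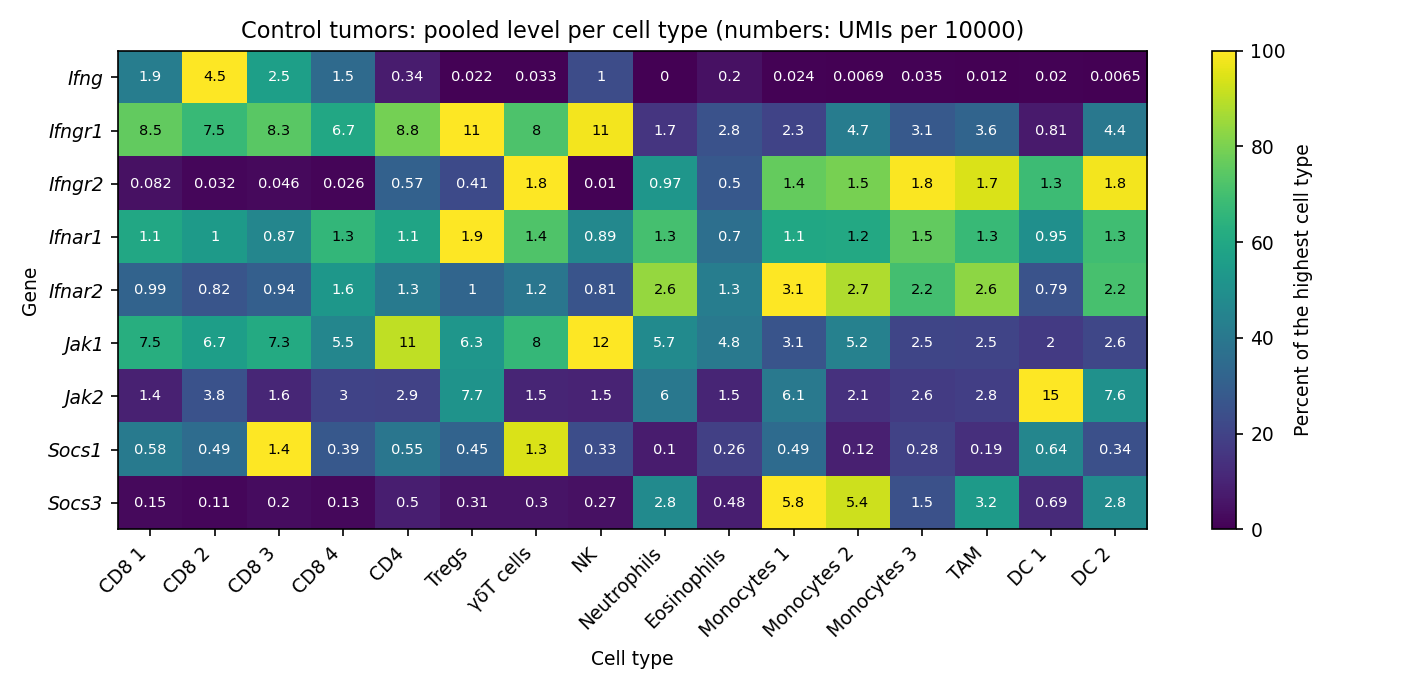
Level of each of the 9 genes (rows) in each of the 16 cell types (columns) of the control tumors; numbers are UMIs per 10000 pooled over cells, and color is the percentage of the highest cell type of that gene, so colors compare cell types within a row only. Ifng peaks in CD8 2, Ifngr1 and Jak1 in lymphocytes, Ifngr2, Ifnar2 and Socs3 in myeloid cells (Ifngr2 also in γδT cells), and Jak2 in DC 1.

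Ifng was made unevenly by the CD8+ T cells. Of 880 control cells in CD8 1 to CD8 3, 393 had an Ifng UMI (44.7%, exact binomial 95% interval 41.3 to 48.0, counting error only), and 46 cells held 50% of the UMIs. The highest cells carried 62, 59 and 34 UMIs, while 166 cells carried 1. For comparison, 11 of 723 control TAMs had an Ifng UMI (1.52%) although TAMs were read more deeply (median 12883 UMIs against 6826 in CD8+ T cells). In neutrophils the count was 0 of 162, and 3 counts of that total would be 1.85% of cells with a UMI. Shares at this level were read as background and not as expression.

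Of 18 listed genes that T cells switch on or use after recognizing antigen, 11 were higher in cells with an Ifng UMI in 5 of 5 control tumors. The share of all genes with this pattern was not computed, so the count does not set the list apart from other genes. Across the 5 control tumors, the chemokine gene Ccl3 stood at 5.40 ± 1.76 UMIs per 10000 in CD8+ T cells with Ifng and 0.764 ± 0.330 in those without, a log2 difference of 2.69 ± 0.521 (SD). The same difference was 1.73 ± 0.991 for Ccl4, 1.49 ± 0.456 for Tnf, 1.19 ± 0.780 for Egr2 and 1.11 ± 0.479 for Xcl1, a chemokine that attracts cross-presenting dendritic cells. All these genes were higher with Ifng in 5 of 5 tumors, as were Lag3 (0.81), Irf4 (0.88), Tnfrsf9 (0.53) and Nr4a1 to Nr4a3 (0.55 to 0.70). Irf8 (0.89), Havcr2 (0.58) and Pdcd1 (0.13) were higher in 4 of 5 tumors and Il2 (0.33) in 2 of 5. The cytotoxic genes Prf1 (0.07, 2 of 5 tumors higher) and Gzmb (0.31, 4 of 5) and the chemokine Ccl5 (-0.02, 3 of 5) did not separate the cells in this way. Among the 9 genes themselves, Ifngr1 (-0.29), Jak1 (-0.24) and Socs3 (-0.30) were lower with Ifng in 5 of 5 tumors and Socs1 was higher (0.32) in 5 of 5. With 5 pairs an exact two-sided test cannot pass the threshold, so none was run. Cells with an Ifng UMI had a higher median depth (7445 against 6302 UMIs) and were more often in cluster CD8 2 (39.4% against 23.4%), and the part of either in these differences was not tested.

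Under GC treatment the Ifng UMIs of 4 tumors were few, and the fifth tumor held nearly all of them. Of 177 Ifng UMIs in GC cells, 173 were in CD8 1 to CD8 3 and 4 in CD4 cells. Tumor 5 held 158 of the 177. Within tumor 5, a pair of cells of cluster CD8 2 with 70 and 48 UMIs held 74.7% of its Ifng, and both carried Cd8a, Cd3e and Ccl4 UMIs. No Ifng UMI was found in the other GC cells, among them 43 TAMs (3 counts would be 6.98% of cells with a UMI) and 4 NK cells.

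The Ifng level in CD8+ T cells (CD8 1 to CD8 3) was 2.66, 3.10, 2.82, 2.51 and 1.43 UMIs per 10000 in control tumors 1 to 5. In GC-treated tumors 1 to 5 it was 0.289 (7 cells), 0.0942 (12 cells), 0.267 (38 cells), 0.333 (9 cells) and 3.28 (41 cells). GC tumors 1 to 4 lay below every control tumor and GC tumor 5 above every one, so the groups overlapped. Over the tumors with at least 10 such cells (5 control, GC tumors 2, 3 and 5), the means were 2.51 ± 0.642 and 1.21 ± 1.79, and the log2 difference (on log2 of the level + 0.1) was -2.02 ± 0.69 (SE), which did not pass the threshold (limma adjusted p = 0.119 over 6158 genes). The quasi-likelihood test of edgeR on UMIs summed over the cells of a tumor gave -0.56 with an adjusted p of 0.796. Without GC tumor 5 the difference was -3.24 with a limma adjusted p of 0.000663, and with tumors of at least 5 cells included it was -2.26 (limma adjusted p = 0.0457). Without the 2 highest cells of every tumor, GC tumor 5 stood at 1.23 and the controls at 1.16 to 2.64, so that it lay within their range. These 2 cells were a larger part of its 41 cells than of the 84 to 385 cells of a control.

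**Figure D2:**
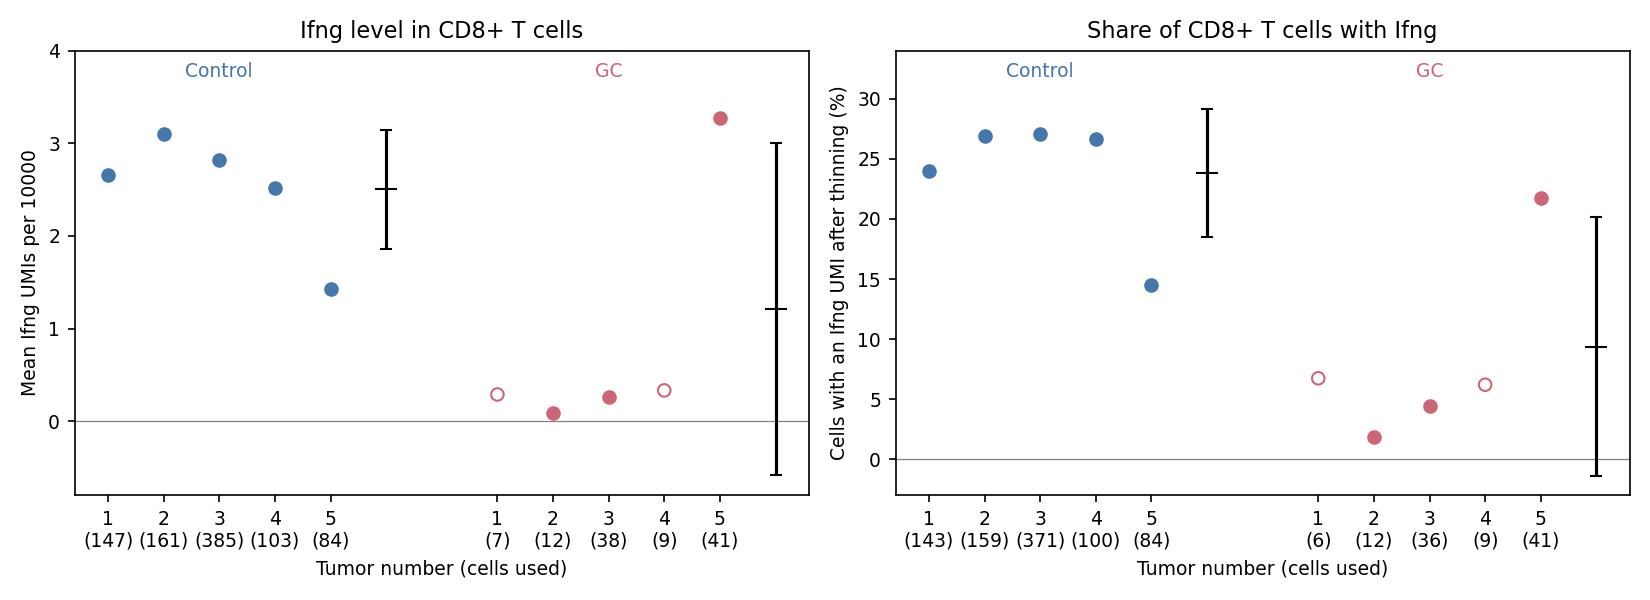
Ifng in CD8+ T cells of each tumor, as mean UMIs per 10000 (left) and as the percentage of cells with an Ifng UMI after thinning every cell to 2000 UMIs (right); blue points are control and red points GC-treated tumors, open points have fewer than 10 cells and enter no mean, and black bars are means ± SD (the lower end of an SD bar can fall below 0, a value cannot). GC tumors 1 to 4 lie between 0.0942 and 0.333 on the left, below the lowest control (1.43), and GC tumor 5 lies at 3.28.

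**Figure D3:**
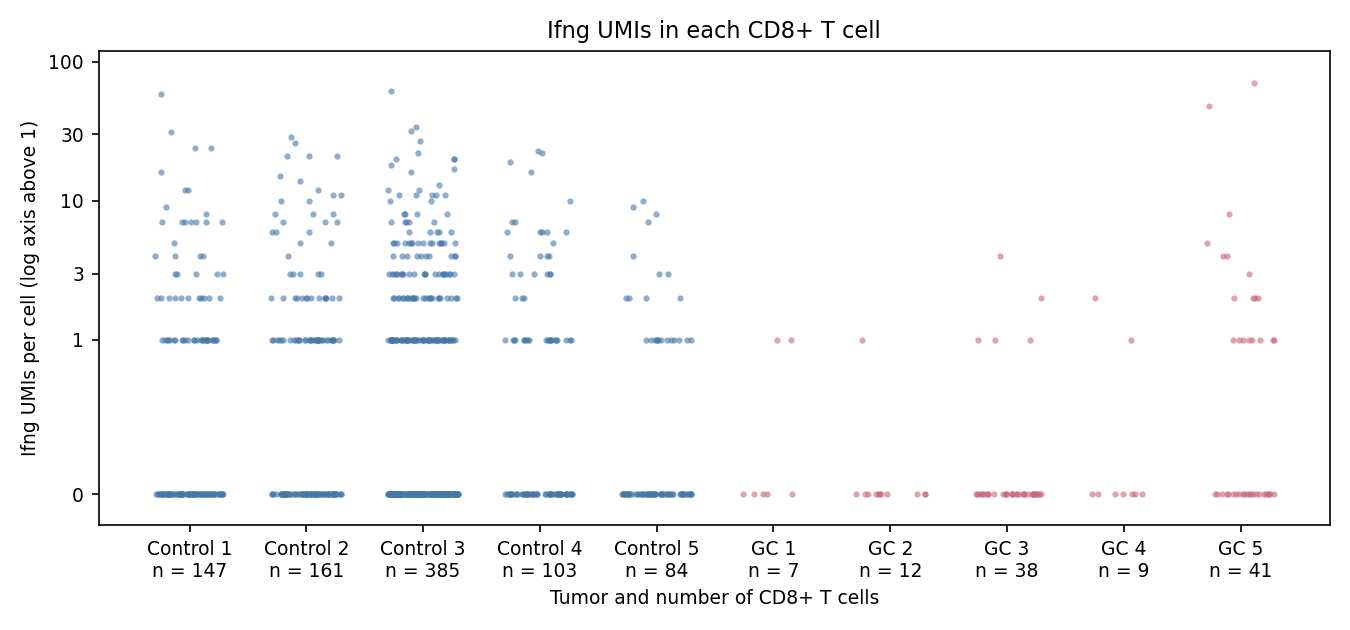
Ifng UMIs in every single CD8+ T cell (1 point per cell, spread sideways only for visibility), by tumor, on an axis that is logarithmic above 1 UMI. The 2 cells with 70 and 48 UMIs in GC tumor 5 stand above all others of the GC group, of which none outside tumor 5 has more than 4 UMIs.

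Without thinning, the share of CD8+ T cells with an Ifng UMI counts every cell once, however many UMIs it holds. Because GC cells were read more deeply, every cell was thinned to 2000 UMIs and shallower cells were left out. A thinned cell counts by its chance of keeping an Ifng UMI, so cells with many Ifng UMIs weigh more than cells with 1. The share was then 24.0%, 26.9%, 27.1%, 26.6% and 14.5% in the control tumors, and 6.74%, 1.88%, 4.47%, 6.21% and 21.7% in GC tumors 1 to 5. GC tumor 5 lay between the lowest control and the other controls, and the other 4 GC tumors lay below all controls. Over tumors with at least 10 cells the means were 23.8 ± 5.35% (n = 5) and 9.36 ± 10.8% (n = 3), a difference of -14.5 percentage points with a two-sided exact permutation p of 0.0357, where 0.0179 is the smallest this design allows. Without thinning the shares were 42.7% and 22.6%, and the exact permutation p was 0.0893. With GC tumors of at least 5 cells included the exact permutation p was 0.0159 (5 against 5 tumors), and with single tumors left out it lay between 0.0286 and 0.114. Leaving out any 1 of control tumors 1 to 4, GC tumor 2 or GC tumor 3 took it above 0.05.

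By cluster, the unthinned share with an Ifng UMI was 37.9% (33.7 to 42.2) of 517 control cells and 22.2% (12.0 to 35.6) of 54 GC cells in CD8 1. It was 57.6% (51.5 to 63.6) of 269 and 30.4% (17.7 to 45.8) of 46 cells in CD8 2, and 44.7% of 94 and 42.9% of 7 cells in CD8 3, with exact binomial 95% intervals that cover counting error only. GC cells were the deeper ones in each cluster. In CD8 1 alone the Ifng level differed by -1.26 on the log2 scale (limma adjusted p = 0.0204).

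Over all CD45+ cells, where fewer cells of a type and less RNA per cell cannot be told apart, Ifng stood at 0.589, 0.708, 0.991, 0.538 and 0.406 UMIs per 10000 in controls. In GC tumors 1 to 5 it stood at 0.112, 0.0382, 0.117, 0.136 and 1.70, again with tumor 5 above and the other 4 below every control. The log2 difference was -1.24 ± 0.57 (limma adjusted p = 0.237), and -1.88 (adjusted p = 0.00352) without tumor 5. The thinned share of cells with an Ifng UMI was 7.41 ± 2.06% against 4.24 ± 4.63% (exact permutation p = 0.214, and 0.00794, the smallest possible, with 4 GC tumors when tumor 5 was left out). CD8 1 to CD8 3 made up 22.1 ± 5.44% of control and 36.4 ± 13.1% of GC cells, and the part of this in the values over all cells was not tested.

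Of the genes known to induce Ifng, Tbx21, which encodes the transcription factor T-bet, fell in CD8+ T cells. It stood between 3.82 and 4.17 UMIs per 10000 in the 5 control tumors and at 0.988, 1.31 and 1.91 in GC tumors, with no overlap (log2 difference -1.50 ± 0.17, limma adjusted p = 0.000745, edgeR adjusted p = 0.000664). Stat4, which encodes the factor activated by IL-12, rose from 8.86 ± 1.05 to 13.7 ± 3.35 (0.61 ± 0.15, limma adjusted p = 0.0447, edgeR adjusted p = 0.00142). These were the 2 of 10 tested inducers that passed in CD8+ T cells, 1 in each direction. In CD8+ T cells 5.02% of all 6158 genes passed by limma and 6.15% by edgeR, against 0 of the 7 members tested (2 and 1 of which had an unadjusted p under 0.05). In neutrophils Stat4 fell (4.88 ± 0.690 to 1.33 ± 0.703, log2 difference -1.88, limma adjusted p = 0.00149), as did Runx3, at 0 in both GC tumors. In TAMs Il18, which encodes a cytokine that acts with IL-12 to induce Ifng, rose from 0.140 ± 0.0471 to 0.391 ± 0.184 (1.00, limma adjusted p = 0.0262) and Irak4 fell (-1.08, adjusted p = 0.0414 by limma and 0.135 by edgeR), 2 of 9 tested where 21.2% of all genes passed by limma. Over all CD45+ cells 0 of 14 inducers passed by limma, with 3 at an unadjusted p under 0.05, and 1 rose by edgeR.

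The chains of the IFN-γ receptor tended to opposite patterns over the 16 cell types (Pearson's r of Ifngr1 with Ifngr2 on log2 pooled levels -0.51). Ifngr1, the ligand-binding chain, was highest in NK cells (11.4 ± 1.51 UMIs per 10000, n = 4) and Tregs (11.4 ± 1.10, n = 5), which did not differ beyond their spread. Tregs exceeded CD4 cells (9.03 ± 1.25) in 5 of 5 tumors, and CD8 1 (8.40 ± 0.416), CD8 3 (7.87 ± 1.14) and CD8 2 (6.98 ± 0.879) followed without a step beyond the spread from CD4 cells on. The step below CD8 2 was larger than the spread (2.47 ± 1.21, higher in 5 of 5 tumors), to DC 2 (4.51), Monocytes 2 (4.47) and TAMs (3.48), and DC 1 was lowest at 0.745 ± 0.187.

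Ifngr2, the signaling chain, was highest in DC 2 (1.81 ± 0.315) and TAMs (1.73 ± 0.0997), followed by Monocytes 1 (1.43), Monocytes 2 (1.38), DC 1 (1.31) and neutrophils (0.904). The pooled γδT cells (1.84, Poisson 95% interval 1.39 to 2.39) stood at the level of DC 2. It was 0.539 ± 0.215 in CD4 cells and 0.433 ± 0.0701 in Tregs, and the step to CD8 1 (0.0725 ± 0.0303) exceeded the spread in 5 of 5 tumors. CD8 2 (0.0260), CD8 3 (0.0208) and NK cells (0.00648) were lowest and did not differ from each other beyond their spread. The CD8 clusters and NK cells, which had the most Ifng, thus had the least Ifngr2. Over the 16 cell types Pearson's r of the log2 pooled levels of Ifng with Ifngr2 was -0.92, a description over points that share 1 library, the same tumors and their depth.

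No receptor gene passed the threshold between the groups in CD8+ T cells, TAMs, neutrophils or all CD45+ cells. In CD8+ T cells Ifngr1 stood between 7.69 and 8.38 UMIs per 10000 in controls and at 10.2, 7.72 and 7.19 in GC tumors 2, 3 and 5, which straddled the controls (log2 difference 0.06 ± 0.12, limma adjusted p = 0.801). Ifngr2 lay under the low-level filter (a mean of 0.2 UMIs per 10000) in these cells, at 0.0527 ± 0.0267 in control and 0.143 ± 0.128 in GC tumors. In TAMs Ifngr1 stood between 3.07 and 3.71 in controls and at 3.42 and 2.73 in GC tumors 2 and 3 (-0.18 ± 0.13, limma adjusted p = 0.356). Ifngr2 in TAMs stood between 1.64 and 1.90 in controls and at 1.65 and 1.16 in GC tumors (-0.30 ± 0.15, adjusted p = 0.170 by limma and 0.230 by edgeR). Without GC tumor 2, or with the monocyte clusters added, this difference passed (-0.54, limma adjusted p = 0.0140, and -0.47, limma adjusted p = 0.0463).

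The type I receptor chains varied less over the cell types. Ifnar1 was highest in Tregs (1.81 ± 0.111), above neutrophils (1.39 ± 0.226) in 5 of 5 tumors, and from neutrophils to eosinophils (0.848 ± 0.258) no neighbors differed beyond their spread. Ifnar2 was highest in Monocytes 1 (3.06 ± 0.154), Monocytes 2 (2.62), TAMs (2.61), neutrophils (2.51) and DC 2 (2.40), and from CD4 cells (1.41) to CD8 2 (0.843) it was lower. In TAMs Ifnar1 lay between 1.06 and 1.46 in controls and at 1.02 and 0.891 in GC tumors 2 and 3. Ifnar2 lay between 2.43 and 2.78 in controls and at 2.03 and 2.38 in GC tumors. Neither gene overlapped between the groups in TAMs, and neither passed (Ifnar1 -0.36 ± 0.15, limma adjusted p = 0.108, and Ifnar2 -0.24 ± 0.12, limma adjusted p = 0.187). With Socs1 they were the 3 of 8 tested genes without overlap in TAMs, where 36.5% of all 5988 genes did not overlap. In CD8+ T cells 0 of 7 were without overlap (15.2% of all genes), in neutrophils 0 of 7 (22.2%) and over all CD45+ cells 0 of 9 (10.9%).

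In neutrophils, short-lived phagocytes of the blood and inflamed tissue, Ifngr2 stood at 1.18, 1.05, 0.883, 0.832 and 0.578 UMIs per 10000 in controls and at 0.229 and 0.692 in GC tumors 2 and 3. The GC tumors lay at the low end and 1 of them within the controls (log2 difference -0.94 ± 0.50, limma adjusted p = 0.320). Ifnar2 stood at 1.68, 2.54, 4.08, 2.32 and 1.91 in controls and at 1.76 and 0.879 in GC tumors, again with overlap (-0.89 ± 0.39, limma adjusted p = 0.226). Ifngr1 (-0.05 ± 0.40) and Ifnar1 (0.08 ± 0.38) had limma adjusted p-values of 0.963 and 0.942 there, with standard errors that leave differences of either sign possible. Ifnar2 over all CD45+ cells stood between 1.63 and 1.84 in controls and at 0.982, 1.81, 1.22, 0.713 and 1.43 in GC tumors 1 to 5, of which only tumor 2 reached the controls (-0.49 ± 0.20, limma adjusted p = 0.182). Without GC tumor 2 it passed (-0.64, limma adjusted p = 0.0437).

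The kinases peaked in different cell types, Jak1 in NK cells and Jak2 in DC 1, and Jak2 did not follow lineage. Jak1 was highest in NK cells (13.6 ± 2.96), CD4 cells (10.1 ± 0.788) and CD8 1 (7.48 ± 0.424), each above the next beyond the spread, and lowest in DC 1 (2.35 ± 0.705). Jak2 was highest in DC 1 (15.3 ± 0.852), above DC 2 (7.87 ± 3.13) and Tregs (7.21 ± 1.68), and reached 3.79 ± 0.753 in CD8 2 against 1.47 ± 0.228 in CD8 1 and 1.37 ± 0.650 in CD8 3. It stood at 5.28 ± 1.82 in neutrophils, 2.84 ± 0.501 in TAMs and 2.04 ± 0.411 in Monocytes 2. DC 1 thus had the least Ifngr1 and the most Jak2 of the 13 types with a spread, and its Jak1 did not differ from that of TAMs (2.52 ± 0.335) beyond the spread.

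Between the groups neither kinase passed in any class. Jak2 in CD8+ T cells stood at 2.81, 1.92, 2.04, 2.16 and 2.09 in controls and at 1.75, 2.01 and 1.20 in GC tumors 2, 3 and 5 (log2 difference -0.41 ± 0.18, limma adjusted p = 0.217, edgeR adjusted p = 0.127). Its groups overlapped through GC tumor 3. In TAMs Jak2 stood between 2.08 and 3.20 in controls and at 3.98 and 2.85 in GC tumors (0.26 ± 0.19, limma adjusted p = 0.357). Jak1 in CD8+ T cells, between 6.95 and 7.40 in controls and at 7.43, 6.55 and 6.82 in GC tumors, differed by -0.06 ± 0.10 (limma adjusted p = 0.742).

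**Figure D4:**
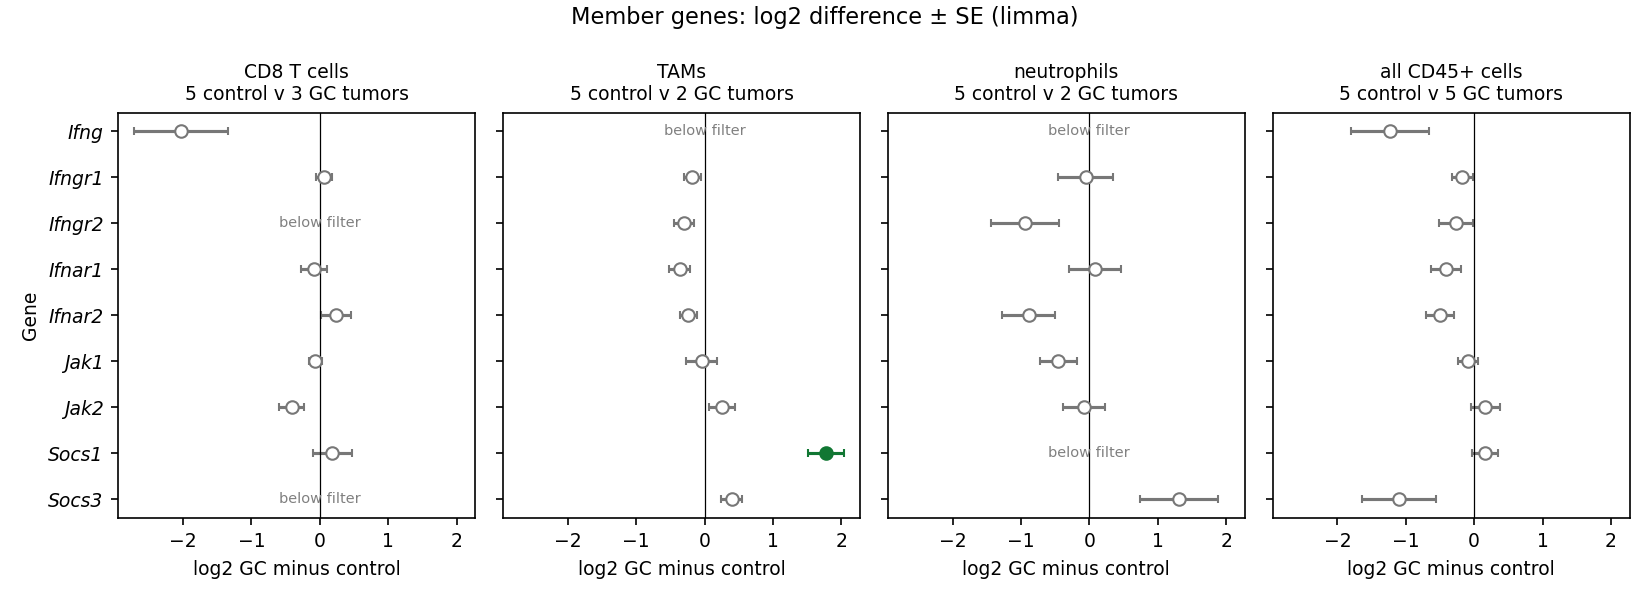
Log2 difference of each gene between GC-treated and control tumors (limma, points ± SE; positive means higher with GC) in CD8+ T cells, TAMs, neutrophils and all CD45+ cells, with genes under the low-level filter left blank. Only Socs1 in TAMs (filled, 1.78 ± 0.26) passed an adjusted p of 0.05, and Ifng in CD8+ T cells (-2.02 ± 0.69) lay farthest from 0.

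The inhibitors peaked in different cell types in control tumors. Socs1 was highest in CD8 3 (1.51 ± 0.360, n = 3), above CD4 cells (0.585 ± 0.159), and the pooled γδT cells reached 1.32 (Poisson 95% interval 0.941 to 1.79). From CD4 cells down to neutrophils (0.0853 ± 0.0875) no neighbors differed beyond their spread. Among these, DC 1 stood at 0.569 ± 0.220, CD8 1 at 0.552 ± 0.0913, Monocytes 1 at 0.479 ± 0.116 and TAMs at 0.179 ± 0.0644. Socs3 was highest in Monocytes 2 (5.06 ± 1.44) and Monocytes 1 (5.03 ± 1.27), followed by DC 2 (3.10), TAMs (3.07 ± 0.302) and neutrophils (2.41 ± 1.83). In CD8 clusters Socs3 lay between 0.0932 and 0.198.

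Socs1 in TAMs was the 1 of 8 tested genes that passed between the groups by limma in any class, where 21.2% of all 5988 genes passed in TAMs. It stood at 0.155, 0.259, 0.222, 0.0909 and 0.170 UMIs per 10000 in the controls. In GC tumors 2 and 3 it stood at 0.679 (17 cells) and 1.03 (16 cells), above every control, and in tumors with fewer than 10 TAMs at 0.196 (tumor 4, 3 cells) and 1.38 (tumor 5, 7 cells). The log2 difference was 1.78 ± 0.26 (limma adjusted p = 0.00133) and 2.26 by edgeR (adjusted p = 0.000341, where 11.2% of all genes passed). The 2 GC tumors make this a comparison of 5 against 2.

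The rise of Socs1 rested on few cells. Of the 23 Socs1 UMIs in TAMs of GC tumor 2, 12 were in 1 cell, as were 12 of 25 in GC tumor 3 and 25 of 25 in GC tumor 5, and 4, 5 and 1 TAMs held all of them. Without the 2 cells with the most Socs1 UMIs in each tumor, the levels in the GC tumors were 0.0982, 0.105 and 0, below or within the controls (0.0526 to 0.225), and the log2 ratio of the group means of tumors with at least 10 TAMs turned to -0.51. These 2 cells were of 17, 16 and 7 TAMs in GC tumors 2, 3 and 5, and of 75 to 198 TAMs in a control. The trim thus took a larger part of the GC tumors, and the turn in sign does not compare equal parts of the groups. Weighted by the number of cells the log2 difference of Socs1 was 1.72 with a limma adjusted p of 0.136. The share of TAMs with a Socs1 UMI, after thinning to 2000 UMIs, was 3.37 ± 1.16% in the 5 controls (1.74% to 4.66%) and 9.42% and 11.6% in the GC tumors, with an exact permutation p of 0.0476, the smallest this design allows. With single control tumors left out the exact permutation p was 0.0667, again the smallest possible. Cells with many Socs1 UMIs weigh more in this thinned share. Without thinning the shares were 15.3 ± 4.27% in controls and 27.4 ± 5.46% in the GC tumors (exact permutation p = 0.0476). Markers of T cells (6 genes) summed to 0.135 to 0.312 in control TAMs and 0 to 0.137 in those of the GC tumors, with Cd3e and Cd3g at 0 in the latter, and without every TAM holding a T cell marker UMI the difference was 1.69 (limma adjusted p = 0.00666).

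**Figure D5:**
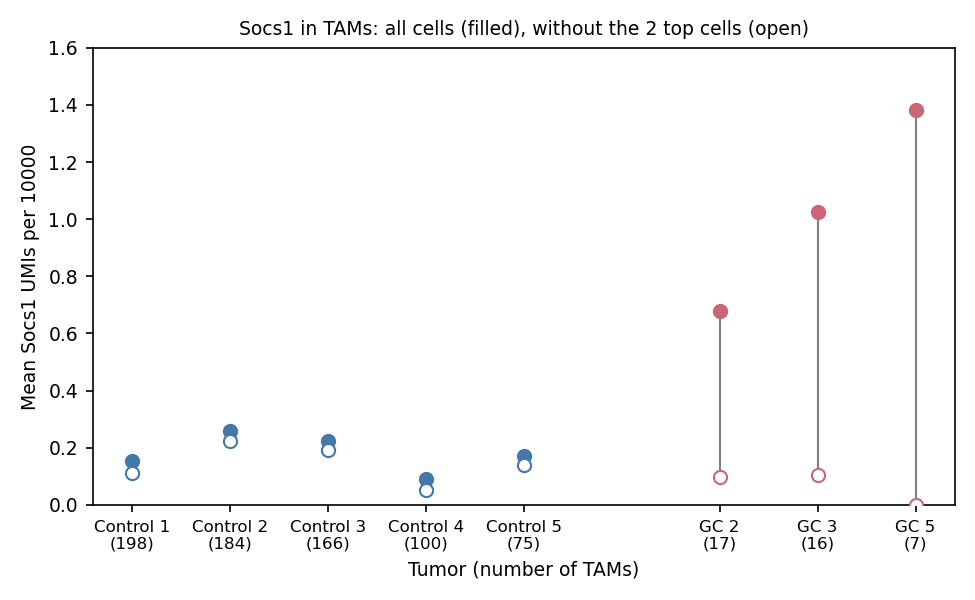
Mean Socs1 UMIs per 10000 in the TAMs of each tumor (number of TAMs under its name), over all cells (filled) and without the 2 cells with the most Socs1 UMIs (open), joined by a line. GC tumors 2, 3 and 5 go from 0.679, 1.03 and 1.38 to 0.0982, 0.105 and 0, and the controls from 0.0909 to 0.259 to 0.0526 to 0.225; GC tumor 5, with 7 TAMs, entered no test.

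Socs3 in TAMs stood between 2.64 and 3.44 in controls and at 3.36 and 4.91 in GC tumors 2 and 3 (log2 difference 0.40 ± 0.16). It did not pass by limma (adjusted p = 0.0940) and passed by edgeR (0.51, adjusted p = 0.0308), 1 of the 2 of 8 genes that did. In neutrophils Socs3 stood at 0.635, 1.37, 2.93, 5.32 and 1.81 in controls and at 5.07 and 4.77 in GC tumors 2 and 3 (1.31 ± 0.57, limma adjusted p = 0.247). The GC tumors lay within the range of the controls there, and 4.83% of all 4411 genes passed in neutrophils by limma and 4.65% by edgeR, with 0 of the 7 tested here among them by either (2 of 7 had an unadjusted p under 0.05 by each). In CD8+ T cells Socs1 stood between 0.513 and 0.747 in controls and at 1.33, 0.415 and 0.635 in GC tumors 2, 3 and 5, on both sides of the controls (0.18 ± 0.28, limma adjusted p = 0.747). Over all CD45+ cells none of the 9 genes passed by limma (6.15% of 6471 genes did, and 1 of the 9 had an unadjusted p under 0.05), and Socs1 alone passed by edgeR (0.71, adjusted p = 0.0377, 9.43% of genes).

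Whether the treatment effect differed between CD8+ T cells and mononuclear phagocytes (TAMs and monocytes) was tested within tumors that held at least 10 cells of both, 5 control and 2 GC. The log2 level of Ifng in CD8+ T cells minus that in phagocytes was 4.43 ± 0.517 in controls and 1.42 ± 0.649 in GC tumors, a difference of -3.01. That of Ifngr2 was -3.52 ± 0.257 and -2.45 ± 0.621, a difference of 1.07. Both had an unadjusted exact permutation p of 0.0476, the smallest possible, the other 7 of the 9 genes had values of 0.143 to 0.524, and none of the 9 passed after adjustment. Each difference has an arm without measurable expression, whose value the pseudocount of 0.1 sets: phagocytes of both GC tumors had 0 Ifng UMIs, and CD8+ T cells of GC tumors 2 and 3 had 4 and 2 Ifngr2 UMIs. With any 1 tumor left out the difference of Ifng lay between -3.47 and -2.56, and with at least 5 cells, which adds GC tumor 5, it was -1.79 (exact permutation p = 0.107).

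Part of the genes that IFN-γ induces fell over all CD45+ cells of GC-treated tumors. Of 25 tested targets 0 rose and 10 fell by limma and 0 and 7 by edgeR, where 6.15% and 9.43% of all genes passed, with a median log2 difference of -0.77 against -0.11 over all genes. The guanylate-binding protein gene Gbp3 fell from 0.549 ± 0.0847 to 0.188 ± 0.0598 UMIs per 10000 (-1.19, limma adjusted p = 0.00563), and Gbp6 (-1.15), Ciita, the master regulator of MHC class II (-1.12), and Gbp4 (-1.04) fell with adjusted p-values of 0.0109 to 0.0378 by limma. Macrophage markers (8 genes) summed to 31.3 to 46.1 UMIs per 10000 in control and 13.1 to 33.9 in GC tumors, and CD8 shares moved the other way. Within TAMs the same 8-gene sum was 126 to 154 in control and 97.8 to 139 in GC tumors, so it need not follow cell numbers alone. The part of cell composition in the differences of the targets was not tested over all cells, but the classes can be read one by one.

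Within CD8+ T cells, where 5.02% of all genes passed by limma, 0 of 19 tested targets rose and 2 fell, Irf8 (0.676 ± 0.246 to 0.176 ± 0.154, -1.67, limma adjusted p = 0.0406) and the immunoproteasome gene Psmb10 (0.642 ± 0.0818 to 0.243 ± 0.0839, -1.14, limma adjusted p = 0.0105), with a median of -0.30 against -0.09 over all genes. Irf8 is itself a marker of dendritic cells. Macrophage markers in CD8+ T cells summed to 1.32 to 2.25 in control and 0.192 to 0.342 in GC tumors, with Mrc1 and Adgre1 at 0 in the latter. A fit without cells holding 3 or more macrophage marker UMIs was made, but its values for Irf8 and Psmb10 are not given here. The part of these markers in the differences of both genes was not assessed. Within TAMs 1 of 25 targets rose and 4 fell by limma, with a median of -0.10 against -0.12 over all genes, where 21.2% of genes passed. By edgeR 2 rose and 2 fell, with a median of 0.11 (11.2% of genes passed), so the sign of the median differed between the tools. The gene that rose was Cxcl10, a chemokine for activated T cells, at 1.92 ± 0.544 in controls and 6.01 and 17.3 in GC tumors (2.39 ± 0.40, limma adjusted p = 0.00466, edgeR adjusted p = 0.00245). Of those that fell, Ciita (1.59 ± 0.305 to 0.723 ± 0.0482, -1.02, limma adjusted p = 0.00329) fell by limma and by edgeR (adjusted p = 0.0134), while Iigp1 (-1.11) and Gbp9 (-0.91) fell by limma alone. In neutrophils 0 of 13 targets passed by limma, with 2 at an unadjusted p under 0.05, and 1 fell by edgeR.

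Of the other signal transducers, 0 of 10 rose and 4 fell in TAMs by limma, and 0 and 1 by edgeR, where 21.2% and 11.2% of all genes passed. Of 11 tested over all CD45+ cells 0 rose, and 3 fell by limma and 2 by edgeR (6.15% and 9.43% of all genes). Among them Irf9, which acts in the response to type I interferon, fell over all CD45+ cells by both tools (-0.70, adjusted p = 0.0416 by limma and 0.0389 by edgeR). Stat4 was the 1 of 11 that passed in CD8+ T cells by limma, and by edgeR 1 rose and 1 fell (5.02% and 6.15% of all genes). In neutrophils Stat4 was the 1 of 8 that passed by limma (4.83% of all genes). Of the other signaling inhibitors, Pias2 in TAMs and Isg15 in neutrophils fell by limma and neither passed by edgeR (12 and 9 tested), by which 1 other inhibitor, Socs4, rose in neutrophils. In CD8+ T cells 0 of 14 inhibitors passed by either tool, with 1 by limma and 2 by edgeR at an unadjusted p under 0.05, and over all CD45+ cells 0 of 13, with 5 and 1. Of the activation genes listed with Ifng, Pdcd1, which encodes PD-1, rose in CD8+ T cells from 6.15 ± 0.871 to 14.4 ± 1.73 (1.23 ± 0.14, limma adjusted p = 0.000715) and Irf8 fell, 2 of 16 tested, with a median of -0.36 against -0.09 over all genes. By limma 5.02% of all genes passed there, and by edgeR 3 of the 16 rose and 1 fell (6.15% of all genes). In TAMs Havcr2 rose and Egr2, Ccl4 and Nr4a2 fell (4 of 10), in neutrophils Nr4a1 fell (1 of 9), and over all CD45+ cells Havcr2 rose and Egr2, Nr4a1 and Irf8 fell (4 of 17), all by limma. Of all genes, 21.2%, 4.83% and 6.15% passed in these classes. Of 6 GC-induced genes, 3 of 5 tested rose past the threshold by limma in CD8+ T cells and 4 of 6 in TAMs. In neutrophils 3 of 6 rose, over all CD45+ cells 4 of 6, and 0 fell past the threshold in any class. In each of CD8+ T cells, TAMs and all CD45+ cells 1 listed gene was lower with an unadjusted limma p under 0.05. By limma 5.02% of all genes passed in CD8+ T cells, 21.2% in TAMs, 4.83% in neutrophils and 6.15% over all CD45+ cells. Of 10 genes induced by tissue dissociation, 0 rose in any class, and 1 fell in CD8+ T cells (Hspa1b, -1.26, not by edgeR), 1 of 9 in TAMs (Egr1), 3 in neutrophils and 0 over all CD45+ cells.

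The genes whose levels over the 16 cell types were most like those of a member, by Pearson's r of log2 pooled levels among 6430 genes, were the following. For Ifng they were Nkg7 (0.96), Klrc1 (0.96) and Styk1 (0.94), of which Nkg7 encodes a protein of cytotoxic granules and Klrc1 the inhibitory receptor NKG2A. For Ifngr1 they were Zdhhc20, Mbnl1 and Gmds (0.95 to 0.94), and for Ifngr2 Cep170, Atrnl1 and Jun (0.93 to 0.89). For Ifnar2 they were Cd14 and Tlr2, which encode receptors for bacterial products, and the stress-induced gene Atf3 (all 0.93), while for Ifnar1 no gene passed 0.79 (Nrd1). For Jak1 they were Smad3, Hsd11b1 and Ripor2 (0.92 to 0.91), and for Jak2 C9orf72, Ndrg1 and Apaf1 (0.85 to 0.80). For Socs1 they were Tor1aip2 (0.95), Nlrc5 (0.85), the activator of MHC class I genes, and Tasor2 (0.84), and for Socs3 Gpr141, Ist1 and Mpeg1 (0.97 to 0.96). Between members the strongest positive value was that of Ifnar2 with Socs3 (0.88). These values describe 16 points of shared tumors and depth and carry no test.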

How the data were processed

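Live CD45+ cells of 5 control and 5 GC-treated 20967 tumors were sequenced in 1 channel per group (10x Chromium 3′). Per the labels and the study's methods, the authors aligned reads to mm10 with Cell Ranger 7.1.0, kept hashtag singlets that passed their quality filters and annotated 16 cell types, with Seurat 5.0.3 and R 4.3.1, and the processing notes also name Partek. The authors deposited natural log values, ln(1 + UMIs per 10000), for 32285 genes in 4108 cells, a cell table with the UMI count and detected gene count of each cell, and the percentage of mitochondrial UMIs, which was not used to filter cells here.

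Of 10330441 values above 0, 100% gave whole UMIs (within 0.01) and their sums equaled the listed total in 4108 cells. Levels were means over the cells of a tumor of UMIs per 10000. CD8+ T cells were clusters CD8 1 to CD8 3. Groups were compared with limma 3.58.1 (trend, robust, R 4.3.3) on log2(level + 0.1) over tumors holding at least 10 cells of a class, for genes whose mean level reached 0.2, with a threshold of 0.05 on the Benjamini-Hochberg adjusted p over all genes tested. edgeR 4.0.16 and DESeq2 1.42.0 on summed UMIs, other filters, pseudocounts, scalings and cell minimums, and leaving out each tumor, were alternatives. The fits were tested on simulated data. Control tumors held 2735708 to 9869474 UMIs and GC tumors 139195 to 1235264, and binomial and Poisson intervals cover counting error only.

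All 9 members were named in each fit, with at most the 5 largest changes of each pathway list among those past the threshold and the 3 genes most like each member over cell types. Genes of Ifng-positive cells were taken from the list of activation genes, and those given as examples were chosen after their values were seen. The members and lists were chosen with earlier results of these data known. Of the listed genes, Cxcl11 was not in the table used here, and another item is not reported here by name. Doublets were treated only by the authors' hashtag singlet filter.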

Additional observations from a re-analysis of the deposited data

Results flagged for a closer look

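In 6 of 48 groups of tumors tested, 1 tumor stood apart from the others of its group by Dixon's criterion, which chance meets in about 1 of 20 groups. In CD8+ T cells, Jak2 in control tumor 1 was 2.81 UMIs per 10000 against 1.92 to 2.16 in the other controls. In the same cells the thinned share with an Ifng UMI in control tumor 5 was 14.5% against 24.0% to 27.1%. In TAMs, Ifng in control tumor 5 was 0.0401 against 0 to 0.0108. Without thinning, 5.33% of its 75 TAMs had an Ifng UMI, above the 1.52% of all control TAMs that was read as background. Over all CD45+ cells, Ifng in GC tumor 5 was 1.70 against 0.0382 to 0.136 and the share of cells with an Ifng UMI 12.4% against 0.855% to 3.11%. Ifnar1 over all CD45+ cells was 0.427 in GC tumor 1, which has 18 cells, against 1.01 to 1.11 in the other GC tumors.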

How the results depend on the processing

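No paired analysis was possible because the tumor numbers of the groups are hashtag names only, given within separate channels, so no fit with a replicate block was made. Of 545 alternatives for the 9 genes, 483 kept the direction and the side of the threshold, 1 lost it, 18 newly passed and 43 turned the direction. The cause was not tested in any of these.

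Of 6158 genes, 309 passed in CD8+ T cells, and 167 without the low-level filter, 195 with tumors of at least 5 cells, 604 with at least 20, 181 weighted by cell number and 135 to 604 with single tumors left out. In TAMs 1270 became 670 by edgeR, 735 by DESeq2, 48 weighted and 867 to 2117 with single tumors left out. In neutrophils 213 became 390 with means of log values, 81 weighted and 105 to 241 with tumors left out. Over all CD45+ cells 398 became 607 with at least 20 cells, 610 by edgeR, 1080 by DESeq2 and 101 to 666 with tumors left out. The share of CD8+ T cells with an Ifng UMI differed by -20.1 points without thinning and by -20.6 to -10.7 with tumors left out (exact permutation p 0.0286 to 0.114), and that of all CD45+ cells by -5.21 to -2.30. Ifng in CD8+ T cells lay between -3.24 and -0.55 over its 19 alternatives and passed in 3 of them. Scaling by median of ratios moved the median of all genes in TAMs from -0.12 to -0.0063, and Socs3 then passed there (0.52, limma adjusted p = 0.0412).

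Directions turned in CD8+ T cells for Ifngr1 (-0.033 with at least 5 cells, -0.089 with at least 20, -0.053 weighted and -0.24 in CD8 1 alone), Ifnar1 (0.14 with at least 20 cells, 0.20 by edgeR, 0.19 by DESeq2, 0.020 with means of log values, 0.093 weighted and 0.019 in CD8 1), Ifnar2 (-0.042 with means of log values), Jak1 (0.049 by edgeR and 0.038 by DESeq2) and Socs1 (-0.23 with at least 20 cells, -0.062 weighted and -0.49 in CD8 1). They turned in TAMs for Jak1 (0.11 by edgeR, 0.12 by DESeq2, 0.0064 with means of log values and 0.084 by median of ratios). For Socs1 in TAMs the direction turned without the 2 highest cells (-0.51), which are a larger part of the TAMs in GC tumors than in controls. In neutrophils they turned for Ifngr1 (0.022) and Jak2 (0.091) with means of log values and Jak1 (0.13) with at least 5 cells. Over all CD45+ cells they turned for Ifngr1 (0.0012 by edgeR and 0.016 by DESeq2), Jak1 (0.016 by DESeq2) and Jak2 (-0.032 with at least 20 cells and -0.10 weighted).

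With single tumors left out, values ranged in CD8+ T cells from -0.089 to 0.16 for Ifngr1, -0.22 to 0.14 for Ifnar1, -0.038 to 0.45 for Ifnar2 and -0.23 to 0.51 for Socs1. They ranged in TAMs from -0.52 to 0.44 for Jak1, in neutrophils from -0.33 to 0.22 for Ifngr1, -0.046 to 0.21 for Ifnar1 and -0.18 to 0.075 for Jak2, and over all CD45+ cells from -0.18 to 0.0071 for Jak1 and -0.032 to 0.26 for Jak2. The difference between CD8+ T cells and phagocytes ranged from -0.0035 to 0.35 for Ifngr1, -0.25 to 0.98 for Ifnar1, -0.21 to 0.50 for Jak1 and -1.57 to 0.15 for Socs1. Where leaving out a tumor leaves 1 in the GC group, that tumor is assumed to vary like the others. The trimmed means and the TAMs without T cell marker UMIs were chosen after seeing the data. The small GC group, at 18 to 111 cells per tumor, limits every comparison.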
